A study of Rattus norvegicus with 30 samples.

Results

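The cyclic AMP signaling genes are the adenylyl cyclases (Adcy), the subunits of protein kinase A (Prkac and Prkar), the A-kinase anchoring proteins (Akap) and the phosphodiesterases (Pde). They were taken by name from the probe sets of the array that carry exactly 1 gene symbol, with the brightest probe set standing for its gene. In this way 42 of the 14557 genes measured were kept: 8 cyclases, 4 protein kinase A subunits, 12 anchoring proteins and 18 phosphodiesterases. Only Pde4d had more than 1 probe set, with 3. Prkar1a, Prkar2b, Pde4b, Pde10a, Pde11a, Adcy4 and Adcy9 were not analysed here.

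The RNA came from entire adrenals of Wistar rats, 12 weeks old, with cortex and medulla together, and was hybridized to 30 Affymetrix Rat Gene 2.1 ST arrays, 5 for each of 6 groups. Control males and control females were sham operated. ORX males had lost their testes and OVX females their ovaries. In the ORX + T and OVX + E groups the same surgery was followed on day 14 by a subcutaneous injection of a depot hormone, either Testoviron-Depot (testosterone, 5 mg per 100 g body weight) or Estradiol-Depot (estradiol, 0.5 mg per 100 g), and all adrenals were taken 4 weeks after surgery. Each replaced group thus combines surgery with a slowly released hormone given after a hormone-free interval, and no intact rats received hormone.

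ACTH from the pituitary binds the melanocortin receptor Mc2r, which needs its partner Mrap at the cell surface and acts through the stimulatory G protein alpha subunit Gnas. The G protein turns on adenylyl cyclase, cyclic AMP binds the regulatory subunits of protein kinase A, and the released catalytic subunits phosphorylate enzymes of steroid synthesis and the transcription factor Creb1. Anchoring proteins hold the kinase at set places in the cell, and phosphodiesterases end the signal. In the adrenal cortex this cascade drives glucocorticoid output, and human mutations of its kinase subunits and of phosphodiesterases of the PDE8 and PDE11 families are known from cortisol excess.

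The 4 members on which most of the results turn are the catalytic subunits Prkaca and Prkacb and the high-affinity cyclic AMP phosphodiesterases Pde8a and Pde8b. Their RefSeq promoters (assembly GRCr8, the 250 bases before the annotated start, 5′ to 3′ on the strand of the gene) are shown because the last step of the cascade, Creb1, recognizes the element TGACGTCA and its shorter core TGACG. Capitals mark TGACG or its reverse complement CGTCA.
Prkaca (chr19:41083190-41083439, minus strand): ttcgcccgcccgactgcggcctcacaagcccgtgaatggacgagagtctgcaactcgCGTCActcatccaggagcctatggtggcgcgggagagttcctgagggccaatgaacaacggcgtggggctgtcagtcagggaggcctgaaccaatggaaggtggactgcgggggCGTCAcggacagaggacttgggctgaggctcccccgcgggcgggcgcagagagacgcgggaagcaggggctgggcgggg
Prkacb (chr2:238386316-238386565, minus strand): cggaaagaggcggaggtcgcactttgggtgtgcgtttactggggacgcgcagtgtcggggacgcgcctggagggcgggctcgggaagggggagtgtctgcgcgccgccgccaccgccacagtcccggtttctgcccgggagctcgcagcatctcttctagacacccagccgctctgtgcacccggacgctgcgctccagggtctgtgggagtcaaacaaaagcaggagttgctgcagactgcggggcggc
Pde8a (chr1:144575219-144575468, plus strand): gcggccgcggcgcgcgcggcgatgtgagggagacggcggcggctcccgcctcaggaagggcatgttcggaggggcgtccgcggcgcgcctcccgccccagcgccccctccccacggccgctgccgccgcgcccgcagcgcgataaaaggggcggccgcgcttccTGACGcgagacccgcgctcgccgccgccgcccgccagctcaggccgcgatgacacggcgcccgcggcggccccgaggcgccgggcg
Pde8b (chr2:28116052-28116301, minus strand): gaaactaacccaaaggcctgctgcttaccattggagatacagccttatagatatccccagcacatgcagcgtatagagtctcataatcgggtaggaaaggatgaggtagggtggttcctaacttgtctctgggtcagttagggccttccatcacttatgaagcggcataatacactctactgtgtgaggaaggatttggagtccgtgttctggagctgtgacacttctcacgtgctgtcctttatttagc
In these windows the core began 193 and 79 bases before the start of Prkaca and 86 bases before that of Pde8a, and those of Prkacb and Pde8b held none. Promoters of 30 of the 42 members were in the table, 36 promoters in all. The core, searched on both strands, lay in 5 of the 36 (13.9%) against 18.2% of 33469 rat promoters of the same length, and the full element in 1 (Akap17a) against 1.59%. No binding was measured.

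Signals are log2 values, on which a difference of 1 is a fold of 2. Array medians lay between 4.36 and 4.63. The arrays differed in the spread of their values: 10 arrays had an SD of 1.43 to 1.60 and the other 20 an SD of 1.67 to 1.75. The narrow arrays were replicate 3 of the control males, 3 and 5 of ORX, 2 and 5 of ORX + T, 5 of the control females, 3 and 5 of OVX, and 2 and 5 of OVX + E. All 19 members whose signal lay above the array median on every array read lower on the narrow arrays than on the others of their group, by a mean deviation from the group mean of -0.69 to -0.06. Of the 8 dim members 1 did. The differences on which the results turn are therefore given with and without these 10 arrays. The 7 zona fasciculata markers measured lay above the array median in every group, as did 8 of 10 chromaffin markers, whereas 6 of 7 adipocyte markers lay under it. As whole glands were used, fewer cells of a type and less RNA per cell cannot be told apart.

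The 8 dim members, under the array median on at least 3 of 5 arrays in every group, were the cyclase Adcy8, the anchoring proteins Akap4, Akap5 and Akap14, and the phosphodiesterases Pde4c, Pde6a, Pde6b and Pde6c. Akap4 and Akap14 are known from sperm and cilia, and Pde6a, Pde6b and Pde6c are the catalytic subunits of photoreceptors. Their levels cannot be told from background. At least 1 member of every family was read above the array median on all 30 arrays, including all 4 kinase subunits.

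Between the 6 groups the members moved little, and about as much as other genes. The range of the 6 group means had a median of 0.25 over the members and 0.26 over all genes. It was over 0.5 for 6 members, 14.3% of them, against 15.8% of all genes, and over 1 for 0 members against 3.36% of all genes. The 6 were Prkaca, Prkacb, Pde8a, Pde8b, Pde2a and Pde5a, which are 2 kinase subunits and 4 phosphodiesterases.

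The single member to pass the test between 2 groups was Prkaca, which was lower in ORX + T than in control males. That is 1 of 42 members, in a comparison that called 0.941% of all genes (0.309% as lower), by limma with Benjamini-Hochberg adjustment over all genes at an adjusted p under 0.05. It was also the single member whose values did not overlap between the groups there, against 2.34% of all genes. In the test for any difference among the 6 groups 1 of 42 passed, again Prkaca (adjusted p = 0.0146 by limma), beside 4.25% of all genes, and 6 had an unadjusted p under 0.05. The share of all genes at that unadjusted limit was not counted for this test.

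In the other comparisons limma called 0 of the 42 members. After gonadectomy these were ORX against control males, where 0.055% of all genes were called and 2 members had an unadjusted p under 0.05 and 1 an exact permutation p under 0.05, and OVX against control females, with 0.165%, 2 and 1. In ORX + T against ORX, 2.05% of all genes were called, and 5 members had an unadjusted and 3 an exact permutation p under 0.05. For OVX + E these values were 1.69%, 4 and 4 against OVX and 0.234%, 5 and 2 against control females. Control females against control males gave 0.433%, 0 and 0. At an unadjusted p under 0.05 by limma, the shares were 4.72% of all genes and 4.76% of members after ORX. After OVX they were 3.93% and 4.76%, and in ORX + T against ORX 7.93% and 11.9%. For OVX + E they were 10.3% and 9.52% against OVX, and 4.65% and 11.9% against control females. Between the controls they were 4.01% and 0%. The share by exact permutation was not counted over all genes. In these comparisons 0 members had values that did not overlap between the groups, beside 0.969% of all genes after ORX, 0.886% after OVX, 2.91% in ORX + T against ORX, 2.29% and 0.694% in OVX + E against OVX and against control females, and 1.02% between the controls. The difference between the estradiol and the testosterone response called 1.57% of all genes and gave 3 members with an unadjusted p under 0.05, and that between the responses to OVX and to ORX 0.00687% and 2. At that unadjusted limit the shares of all genes were 7.99% and 2.14%, and those of members 7.14% and 4.76%. With 5 rats against 5, the smallest exact permutation p is 0.00794.

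The intervals bounded the array signal of most members, dim ones included, so a narrow interval does not by itself bound a change in RNA. The share over all genes was not counted. Of the 34 members that were not dim, 32 to 34 had a 95% interval that lay within a fold of 2 in each of the 7 comparisons between 2 groups. Over all 42, the differences ran from -0.86 (Pde8b) to 0.41 (Pde7b) after ORX and from -0.59 (Pde8b) to 0.26 (Pde8a) after OVX. The plot of the differences after replacement shows where each gene lay.

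**Figure D1:**
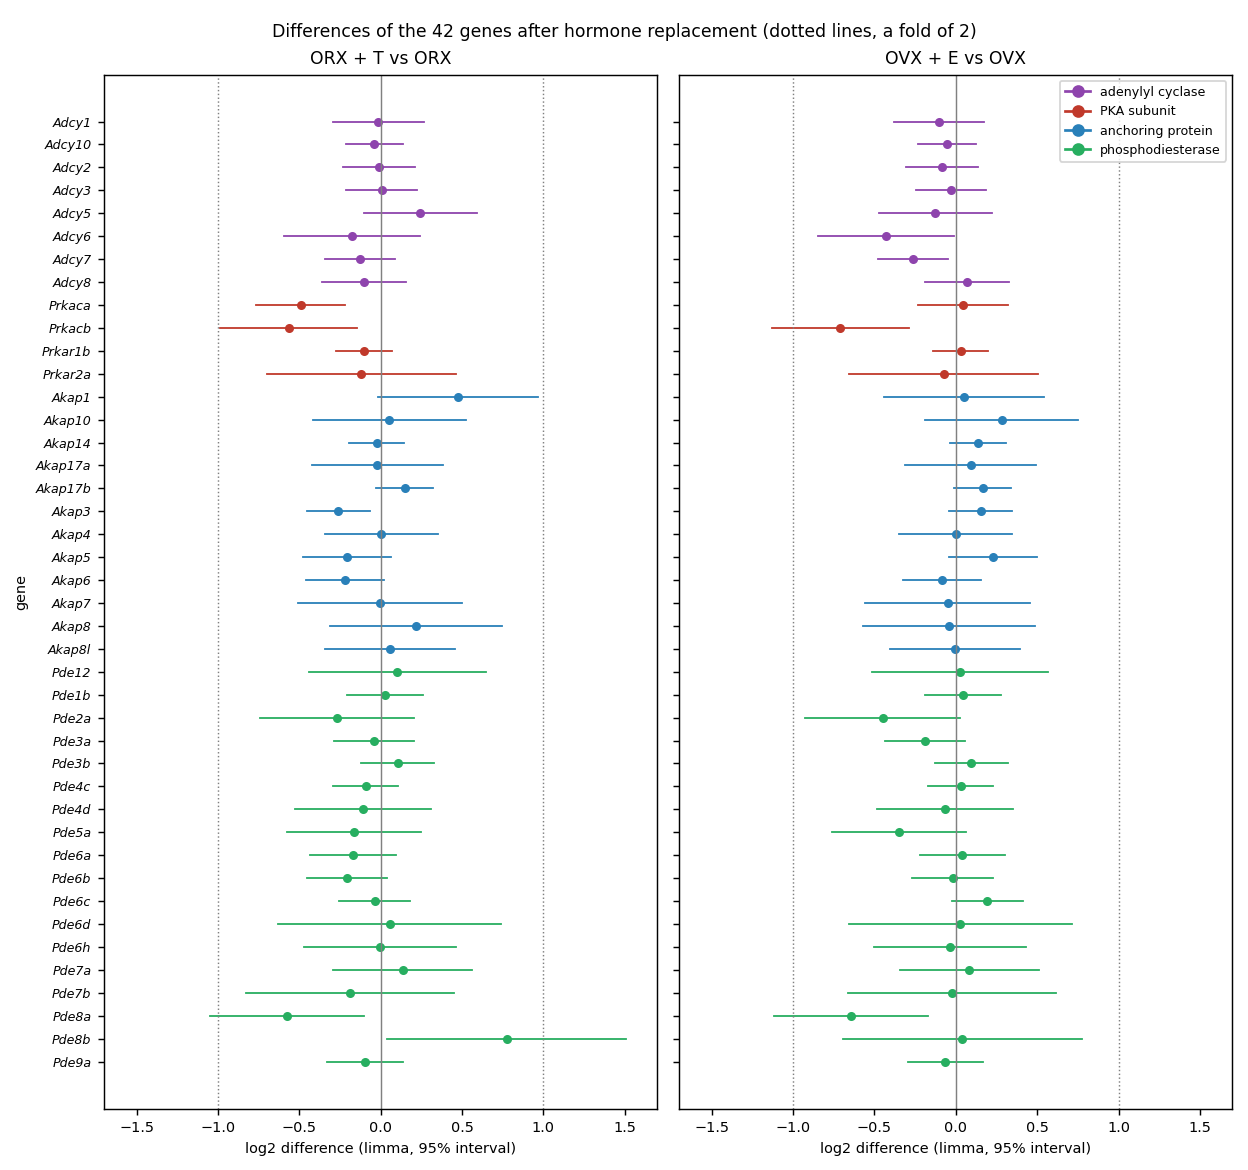
Difference in log2 signal of each of the 42 genes in ORX + T against ORX (left) and in OVX + E against OVX (right), with its 95% interval from limma, 5 rats a group. Colors mark the 4 families and dotted lines a fold of 2. Prkaca (-0.49) and Prkacb (-0.56) lay under 0 on the left and Prkacb (-0.71) on the right, with Pde8a lower on both sides (-0.57 and -0.65), though none of these passed after adjustment.

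Among the adenylyl cyclases, which make cyclic AMP, none passed in any of the 9 comparisons when all arrays were fitted without array weights. Adcy6, a calcium-inhibited cyclase, was read at 5.64, 5.06, 5.32, 5.41 and 4.99 in OVX + E, and at 5.80, 5.98, 5.55, 5.87 and 5.34 in OVX. The groups overlapped, and the difference of -0.43 (SE 0.20) had an adjusted p of 0.469 by limma. Without the 10 narrow arrays, or with array weights, Adcy6 was among 4 members that passed in this comparison. The share of all genes called under these settings was not counted.

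Adcy5, the other calcium-inhibited form, had group means of 5.00 (ORX) to 5.24 (ORX + T), and Adcy3, a membrane cyclase best known from olfaction, of 4.48 to 4.56. Both ranges are within the spread between rats, whose SD within groups was 0.27 for Adcy5 and 0.16 for Adcy3. Adcy2 lay between 4.72 and 4.86. Adcy7 was lower in OVX + E than in OVX by 0.26 (fitted difference -0.26, SE 0.10, adjusted p = 0.316; -0.31 and 0.207 without the narrow arrays), and Adcy10, the soluble cyclase that bicarbonate activates, had means between 4.11 in ORX + T and 4.37 in OVX. Both genes were close to background. Adcy7 lay under the array median on 4 of 5 arrays in OVX + E and on 2 of 5 in OVX. Adcy10 lay under it on 5 of 5 in ORX + T and on 2 of 5 in OVX. The median difference of the 8 cyclases was -0.03 in ORX + T against ORX and -0.09 in OVX + E against OVX, where the medians over all genes were -0.01 and 0.02.

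The 4 subunits of protein kinase A included Prkaca, the single member that passed between 2 groups. Prkaca encodes the alpha catalytic subunit, which phosphorylates the targets of the cascade. Its values were 9.17, 9.22, 8.92, 9.13 and 9.15 in control males, 9.21, 9.23, 8.71, 9.18 and 8.86 in ORX, and 8.65, 8.08, 8.73, 8.76 and 8.49 in ORX + T. Every ORX + T rat lay under every control male, whereas the highest ORX + T rat (8.76) was above the lowest ORX rat (8.71), which was on a narrow array. In females the same gene was read at 9.25, 9.35, 9.44, 9.22 and 8.74 in controls, 9.26, 9.26, 8.82, 9.15 and 9.01 in OVX, and 9.26, 8.95, 9.23, 9.17 and 9.11 in OVX + E. These 3 groups overlapped throughout, and 14 of the 15 female rats were above all ORX + T rats.

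Against control males (9.12 ± 0.11, SD, n = 5) Prkaca in ORX + T (8.54 ± 0.28) was lower by a log2 difference of -0.57 (SE 0.13, a fold of 1.49), with an adjusted p of 0.0274 by limma and an exact permutation p of 0.00794. Against ORX (9.04 ± 0.23) the difference was -0.49 (SE 0.13), and its adjusted p of 0.0501 missed the threshold. ORX itself differed from control males by -0.08 (95% interval -0.36 to 0.19). In females OVX + E against OVX gave 0.04 (95% interval -0.23 to 0.32). The test of the estradiol response minus the testosterone response gave 0.54 (SE 0.19), with an adjusted p of 0.266 over all 30 arrays.

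The difference of Prkaca was present without the narrow arrays, but its call changed with single rats and with the model of the variance. Without the 10 narrow arrays the difference was -0.45 (adjusted p = 0.000365) against control males and -0.49 (adjusted p = 0.000187) against ORX, and the estradiol response minus the testosterone response, at 0.49, then passed (adjusted p = 0.00845). That difference of the responses also passed with array weights, quantile normalization or the array SD as a covariate. Fits that left out 1 array gave -0.63 to -0.46, and the call was lost without replicates 1, 2, 4 or 5 of the control males or 2 or 5 of ORX + T (adjusted p up to 0.12), as it was when only the arrays of the groups compared were fitted (adjusted p = 0.0787) or with an intensity trend and robust variances (adjusted p = 0.0513).

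Marker lists of other cells were read beside it, in ORX + T against control males. Of the markers in this paragraph only Postn, of the capsule and fibroblast list, passed as higher. It kept its call in 2 of the 10 fits that left out 1 array. The summed level of the 10 chromaffin markers was 11.41 to 11.92 in ORX + T and 11.65 to 12.29 in control males, with 1 of the 10 differences above 0, and that of the 9 capsule and fibroblast markers was 11.22 to 11.34 against 10.96 to 11.16, with 9 of 9 differences above 0. Of the 8 zona glomerulosa markers 1 had a difference above 0 (median -0.23), with summed levels of 10.69 to 11.33 against 11.25 to 11.68, and of the 8 macrophage markers 0 (median -0.10), with 10.29 to 10.90 against 10.24 to 11.31. The 2 nerve and Schwann cell markers summed to 7.59 to 8.04 against 7.04 to 7.16. Slc18a2 and Pcsk2 were the chromaffin markers under the array median in every group. ORX + T had 2 narrow arrays and the control males 1, and these medians and summed levels were not computed without them. The part of these cells in the level of Prkaca was not tested.

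Prkacb encodes the beta catalytic subunit, which shares its substrates with the alpha form. It was read at 8.60, 7.82, 8.73, 8.86 and 7.88 in OVX + E, at 9.10, 9.22, 8.77, 9.44 and 8.90 in OVX, and at 9.07, 9.01, 8.84, 9.35 and 8.39 in control females. The lowest values, 7.82 and 7.88, were on the narrow arrays of OVX + E, but its other 3 rats also lay under all 3 OVX rats on arrays of the usual spread. The difference from OVX was -0.71 (SE 0.21, a fold of 1.63), with an adjusted p of 0.0837 by limma and an exact permutation p of 0.0159. It was -0.52 without the narrow arrays, with an adjusted p of 0.0148. In the same comparison 0 of 8 zona glomerulosa, 0 of 8 macrophage and 0 of 7 endothelial markers had a difference above 0, and the summed levels in OVX + E and OVX were 10.22 to 11.42 and 11.11 to 11.70, 9.40 to 10.47 and 10.19 to 10.91, and 9.65 to 10.59 and 9.96 to 10.67. Of these only Shh and Cldn5 lay under the array median in both groups, and their part in the levels of Prkacb or Pde8a was not tested.

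In males Prkacb was at 8.69, 9.13, 8.75, 9.04 and 9.02 in controls, at 9.28, 9.50, 8.63, 9.42 and 8.94 in ORX, and at 8.87, 8.23, 8.76, 8.68 and 8.41 in ORX + T. ORX + T lay mostly under ORX, with overlap at the narrow ORX array of 8.63. The difference was -0.56 (SE 0.21, adjusted p = 0.27), and without the narrow arrays -0.63 (adjusted p = 0.00308). The response of Prkacb to estradiol minus that to testosterone was -0.15 (95% interval -0.74 to 0.45, adjusted p = 0.965).

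The 2 regulatory subunits measured, which hold the kinase inactive until cyclic AMP binds, did not pass in any comparison without array weights. Prkar1b had group means of 5.07 in ORX + T to 5.26 in control males, a difference of -0.19 (SE 0.08, adjusted p = 0.755). With array weights Prkar1b passed in this comparison and in the test among all groups. Prkar2a, the type II form that binds anchoring proteins tightly, ranged from 6.72 to 7.06. Its SD within groups was 0.47, and its lowest value, 5.52, was on the narrow array of the control females. All 4 subunits had differences under 0 in ORX + T against both control males and ORX, with medians of -0.26 and -0.31, where the medians over all genes were 0.00 and -0.01. In OVX + E against OVX 2 of 4 were above 0.

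**Figure D2:**
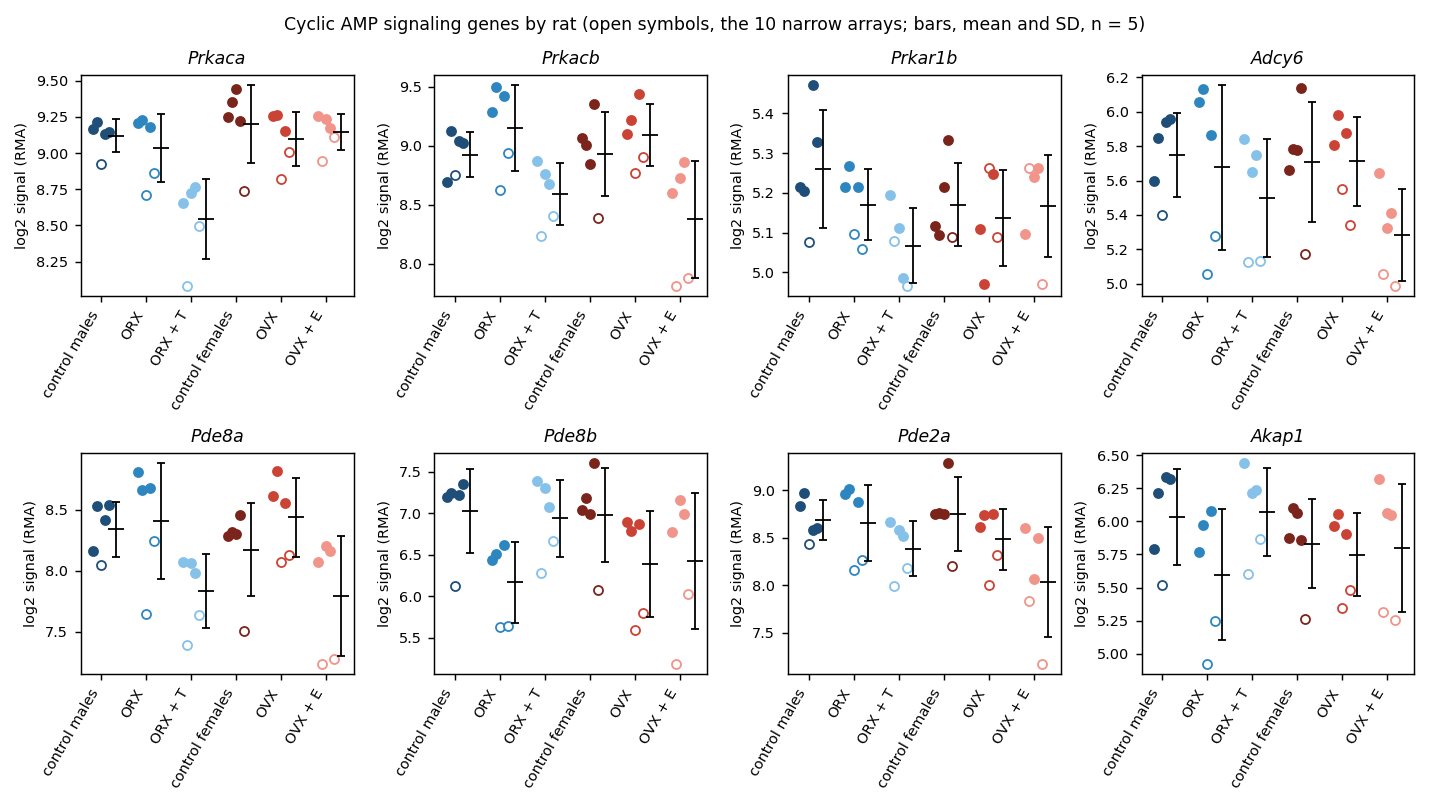
Log2 signal of 8 members in every rat of the 6 groups, with the mean and SD (n = 5) beside the points and open symbols for the 10 narrow arrays. Prkaca in ORX + T (8.08 to 8.76) lay under all control males (8.92 to 9.22), and Pde8b in ORX (5.62 to 6.62) under all control males but the narrow array at 6.12.

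Of the 12 anchoring proteins none passed in any comparison when all 30 arrays were fitted without array weights or a covariate. Akap1, which tethers protein kinase A to the outer mitochondrial membrane, was at 4.92 to 6.08 (median 5.77) in ORX, 5.52 to 6.33 (median 6.21) in control males and 5.60 to 6.44 (median 6.21) in ORX + T. The groups overlapped, and ORX + T exceeded ORX by 0.48 (SE 0.24, adjusted p = 0.677). When the array SD entered the fit as a covariate, Akap1 passed in ORX against control males, in ORX + T against ORX and in OVX + E against OVX, and without the narrow arrays it passed in none of these. Other anchoring proteins passed under single settings: Akap3 in ORX + T against ORX and in the estradiol minus the testosterone response, and Akap10 in OVX + E against OVX, with the same covariate, and Akap6 between the controls with array weights. Akap7, which also binds regulatory subunits, passed among the 6 groups without the narrow arrays, with array weights or with the covariate.

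Akap8 and Akap8l are nuclear proteins tied to chromatin. Their means ran from 6.47 (OVX + E) to 6.93 (control males) for Akap8 and from 7.55 (OVX + E) to 7.81 (control males) for Akap8l. Akap10, which binds both types of regulatory subunit, lay between 6.93 in OVX and 7.21 in OVX + E. The SD within groups was 0.43 for Akap8, 0.32 for Akap8l and 0.38 for Akap10, about as large as these ranges or larger.

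Akap3, a protein of the sperm tail, was the member of lowest unadjusted p after ORX. Its means were 4.23 in control males and 4.24 in ORX + T, with a higher mean in ORX. It lay under the array median on 5 of 5 arrays in control males and in ORX + T, and on 2 of 5 in ORX. Only ORX kept Akap3 from being counted as dim, and its levels in the 2 groups compared with ORX cannot be told from background. The difference after ORX was 0.26 (SE 0.09) and that of ORX + T from ORX -0.26 (SE 0.09), with adjusted p of 0.746 and 0.267. The highest ORX values, 4.83 and 4.60, were on its narrow arrays 3 and 5, and without the narrow arrays the differences were 0.15 and -0.15 (adjusted p of 0.536 and 0.501). Over the 12 anchoring proteins the median difference was -0.08 after ORX, -0.12 after OVX, 0.00 in ORX + T against ORX and 0.07 in OVX + E against OVX.

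Of the phosphodiesterases, the families 4, 7 and 8 act on cyclic AMP alone, and Pde8a and Pde8b do so with the highest affinity. Pde8a was read at 8.81, 8.66, 7.64, 8.68 and 8.24 in ORX and at 8.07, 7.39, 8.07, 7.98 and 7.64 in ORX + T. In females it was at 8.61, 8.81, 8.07, 8.56 and 8.13 in OVX and at 8.07, 7.24, 8.21, 8.16 and 7.28 in OVX + E. On the arrays of the usual spread every replaced rat lay under every gonadectomized rat of its sex, and with the narrow arrays included the groups overlapped.

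The difference of Pde8a was -0.57 (SE 0.23, adjusted p = 0.39) for testosterone and -0.65 (SE 0.23, adjusted p = 0.214) for estradiol, by limma over all arrays. Without the narrow arrays these were -0.67 (adjusted p = 0.000109) and -0.51 (adjusted p = 0.0025). The control groups, at 8.34 ± 0.22 in males and 8.17 ± 0.38 in females, lay between the gonadectomized and the replaced means. The response to estradiol minus that to testosterone was -0.07 (95% interval -0.74 to 0.60).

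Pde8b, whose loss raises corticosterone in mice, followed another course. Its values were 7.20, 7.24, 6.12, 7.22 and 7.35 in control males, 6.44, 6.50, 5.62, 6.62 and 5.64 in ORX, and 7.38, 6.27, 7.30, 7.08 and 6.66 in ORX + T. The 3 ORX rats on arrays of the usual spread, up to 6.62, lay under the 4 such control males, from 7.20, and under the 3 such ORX + T rats, from 7.08. ORX differed from control males by -0.86 (SE 0.36, a fold of 1.82, adjusted p = 0.901), and ORX + T from ORX by 0.77 (SE 0.36, adjusted p = 0.564), both with wide errors.

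Without the narrow arrays the same differences of Pde8b were -0.73 (adjusted p = 0.00407) and 0.73 (adjusted p = 0.000869). In females it was at 7.03, 7.18, 6.99, 7.60 and 6.07 in controls, 6.89, 6.79, 5.59, 6.87 and 5.80 in OVX, and 6.78, 5.18, 7.16, 6.99 and 6.03 in OVX + E. OVX differed from controls by -0.59 (SE 0.36, adjusted p = 1) and OVX + E from OVX by 0.04 (95% interval -0.69 to 0.77). The estradiol response of Pde8b minus its testosterone response was -0.73 (SE 0.51, adjusted p = 0.837).

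**Figure D3:**
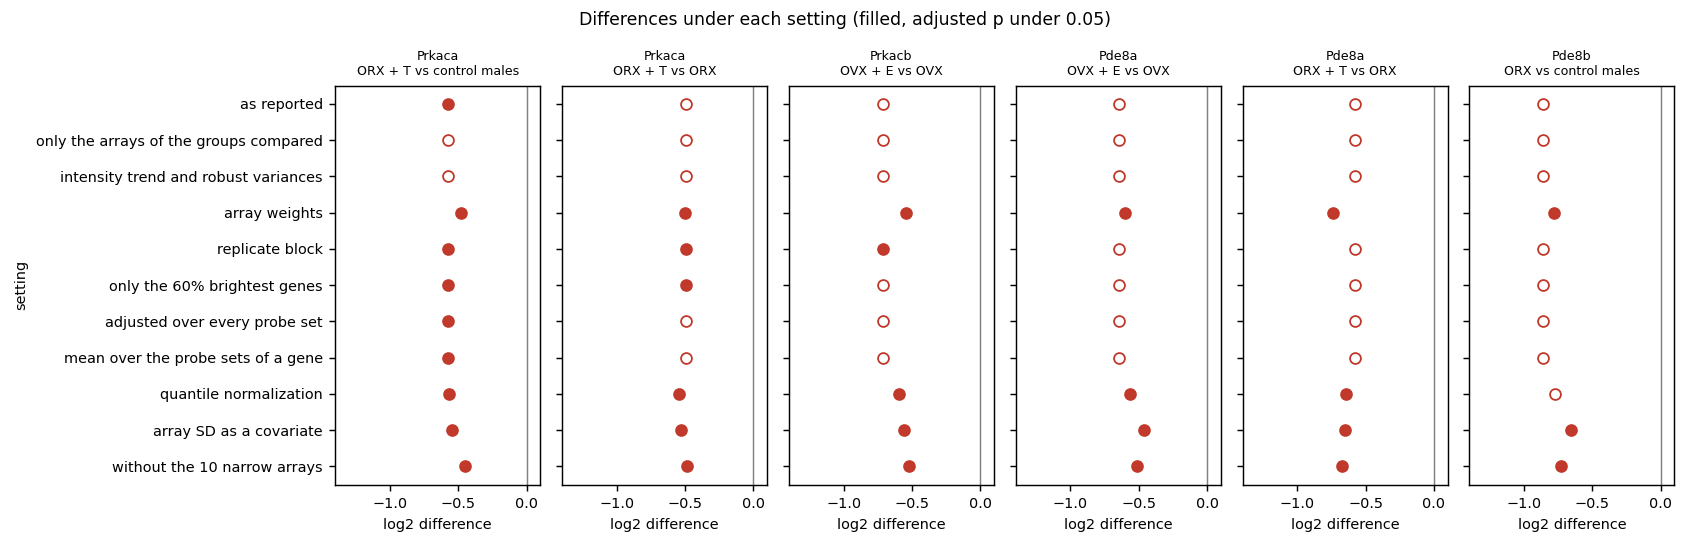
Log2 difference of Prkaca, Prkacb, Pde8a and Pde8b in 6 comparisons (panels) under 11 ways of fitting the data (rows), filled where the adjusted p was under 0.05. The 6 shown were all negative in the fit as reported, which filled 1 of them. The differences ran from -0.86 to -0.45, and several settings change only the variance, the filter or the adjustment and cannot move them. All 6 were filled when the narrow arrays were left out, when the array SD was a covariate or when arrays were weighted. With only the arrays compared, or with an intensity trend and robust variances, 0 were filled.

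The other cyclic AMP phosphodiesterases did not pass in the fit of all arrays without a covariate. Pde4d, a target of rolipram, lay between 5.34 in ORX + T and 5.47 in control females at its brightest probe set. Its 3 probe sets disagreed in size: in ORX + T against ORX they gave -0.11, -0.46 and -0.02, and in OVX + E against OVX -0.07, -0.27 and -0.27. Pde7b ranged from 6.23 in control males to 6.63 in ORX and Pde7a from 5.03 to 5.24. Both ranges were within the SD of 0.51 and 0.34, which includes the narrow arrays. With the array SD as a covariate, Pde7b passed in ORX against control males and Pde7a in OVX + E against OVX. Pde7b also passed in the test among all groups with that covariate or without the narrow arrays.

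Of the enzymes that split both cyclic nucleotides, Pde2a is stimulated by cyclic GMP and is known from the zona glomerulosa. It was at 8.60, 7.84, 8.07, 8.50 and 7.17 in OVX + E and at 8.75, 8.76, 8.75, 9.29 and 8.20 in control females. The groups overlapped only through the narrow array of the control females. The difference was -0.71 (SE 0.23, a fold of 1.64) with an adjusted p of 0.448, and without the narrow arrays -0.50 (adjusted p = 0.0932). Pde2a passed there with quantile normalization or with the array SD as a covariate, as did Prkacb. In the same comparison 0 of 8 zona glomerulosa markers were above 0, with a median of -0.48 and summed levels of 10.22 to 11.42 against 11.06 to 11.76. Nor was any of 7 endothelial (median -0.46, 9.65 to 10.59 against 9.93 to 10.56), 8 macrophage (median -0.32, 9.40 to 10.47 against 10.09 to 10.66) or 10 chromaffin markers (median -0.34, 10.96 to 11.90 against 11.48 to 12.07) above 0. OVX + E had 2 narrow arrays and the control females 1, and these medians and summed levels were not computed without them. The part of these cells in the level of Pde2a was not tested. Pde1b, Pde3a and Pde3b had ranges of group means of 0.08, 0.22 and 0.19.

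Of the enzymes for cyclic GMP, Pde5a, the target of sildenafil, was at 5.52 to 6.03 (median 5.90) in ORX + T and 5.98 to 6.38 (median 6.32) in control males, a difference of -0.40 (SE 0.20, adjusted p = 1). It was at 5.66 to 6.28 in OVX + E and 5.91 to 6.79 in control females, with -0.47 (SE 0.20, adjusted p = 0.911). Without the narrow arrays the latter was -0.41 (adjusted p = 0.0506), and Pde5a then passed as lower in OVX + E against OVX, as it did with array weights. It also passed in ORX + T against control males with array weights or with the array SD as a covariate. Pde9a was lower in OVX + E than in control females by a fitted -0.30 (SE 0.11, adjusted p = 0.739). Its highest value, 5.29, was on the narrow array of the control females, replicate 5. The difference was -0.19 without that array and -0.23 (adjusted p = 0.346) without all narrow arrays. Pde6d, Pde6h and Pde12 match the family by name only. Pde6d carries prenylated proteins, Pde6h is an inhibitory subunit of cone photoreceptors, and Pde12 is a mitochondrial enzyme that does not act on cyclic nucleotides. Their ranges of 0.41, 0.18 and 0.38 were within an SD of 0.56, 0.37 and 0.44, which includes the narrow arrays. Pde6d passed in OVX + E against OVX with the array SD as a covariate. In the test among all groups, Pde6d and Pde12 passed with that covariate or without the narrow arrays.

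Upstream of these genes, the ACTH receptor was higher in ORX + T than in ORX. Mc2r was at 10.59, 10.19, 10.30, 10.54 and 10.33 in ORX + T and at 9.49, 9.68, 9.24, 9.50 and 9.06 in ORX, with no overlap. The rise was by a fold of 1.99 (adjusted p = 0.000496), and Mc2r kept its call in all 10 fits that left out 1 array. In OVX + E against OVX the difference was 0.31 (adjusted p = 0.563). Mrap lay between 9.30 and 9.66, Gnas between 6.52 and 7.63, and neither passed. Of the 9 measured genes of receptor and G proteins, 1 rose and 0 fell in ORX + T against ORX, with a median of 0.06, and 0 rose and 1 fell in OVX + E against OVX, with a median of -0.15.

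Of 11 other effectors of cyclic AMP and inhibitors of the kinase, 1 rose in ORX + T against ORX. This was Rapgef3, an exchange factor that cyclic AMP activates without the kinase, with 7.83 ± 0.33 in ORX + T and 6.61 ± 0.57 in ORX, a rise of 1.22 (SE 0.30, adjusted p = 0.0223). Of the 10 fits that left out 1 array 5 kept this call, and it was lost without replicates 3 or 5 of ORX or 1, 3 or 4 of ORX + T (adjusted p up to 0.0943), and also with only the arrays compared (adjusted p = 0.0536). The kinase inhibitor Pkia had a difference of 0.73 (adjusted p = 0.176). Of 9 CREB factors and coactivators 0 passed in ORX + T against ORX, and Creb1 had a difference of 0.40 (adjusted p = 0.954).

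Of 17 cyclic AMP-responsive genes measured, 1 rose (Mc2r again) and 3 fell in ORX + T against ORX: the glucocorticoid 11-beta-hydroxylase Cyp11b1 by -0.97 (SE 0.11, adjusted p = 7.24e-07), its electron donor Fdx1 by -0.60 (adjusted p = 0.000172) and the cholesterol esterifying enzyme Soat1 by -0.39 (adjusted p = 0.0282). The median of the list was -0.08. Soat1 lost its call without replicates 1, 2 or 4 of ORX or 2, 3, 4 or 5 of ORX + T (adjusted p up to 0.115). In ORX + T against control males Cyp11b1 (-0.67, adjusted p = 0.000549) and Fdx1 (-0.43, adjusted p = 0.0144) fell as well, and among the CREB list the kinase Sik1 rose by 1.45 (adjusted p = 0.0346). The call of Fdx1 was lost without replicate 2 of the control males or 2, 4 or 5 of ORX + T (adjusted p up to 0.0757), and that of Sik1 without any 1 array of either group except replicate 1 of the control males and 2 of ORX + T (adjusted p up to 0.163).

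In OVX + E against OVX the genes that fell were others of the same lists: the transcription factors Fosb (-2.34, adjusted p = 7.36e-07) and Nr4a2 (-2.10, adjusted p = 3.01e-05), the clock gene Per1 (-1.49, adjusted p = 0.0033), the kinase Sik1 (-1.87, adjusted p = 0.00166) and the G protein regulator Rgs2 (-1.33, adjusted p = 0.0451). These are early response genes, induced within minutes of many stimuli, and none of the 42 members was called beside them. Fosb was at 6.45 to 7.48 in OVX and 4.25 to 4.97 in OVX + E. The call of Rgs2 was lost without replicates 1, 2, 3 or 4 of OVX or 2, 3 or 5 of OVX + E (adjusted p up to 0.165). Against control females, Fosb rose by 1.23 in OVX (adjusted p = 0.0218) and fell by 1.11 in OVX + E (adjusted p = 0.0343). With only the arrays compared, both of these calls were lost (adjusted p of 0.203 and 0.19), as in 6 and 7 of the fits that left out 1 array.

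Between the controls, Rgs2, Sik1, Nr4a1, Nr4a2, Fos and Junb were higher in females by 1.69, 2.03, 1.62, 1.21, 2.68 and 2.57, with adjusted p of 0.0178, 0.00371, 0.0179, 0.0499, 0.00701 and 0.00158. Of the 42 members 0 differed there, and their differences lay between -0.32 and 0.25. Sik1 in control males had 1 rat at 8.14 and the other 4 between 5.58 and 6.19. With only the arrays of the controls fitted, the calls of these 6 genes were lost (adjusted p from 0.143 to 0.273). The calls of Rgs2 and Nr4a1 were also lost without replicates 2, 3 or 4 of the control females or 3, 4 or 5 of the control males (adjusted p up to 0.0942), and that of Nr4a2 in 8 of the 10 fits that left out 1 array. Some genes of these lists are also zona fasciculata markers, of which 1 rose (Mc2r) and 2 fell (Cyp11b1 and Akr1b7) in ORX + T against ORX. Akr1b7 kept its call in 3 of the 10 fits that left out 1 array and lost it without replicates 1, 2, 4 or 5 of ORX or 2, 4 or 5 of ORX + T (adjusted p up to 0.139), without the narrow arrays (adjusted p = 0.11) and with only the arrays compared (adjusted p = 0.0964).

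**Figure D4:**
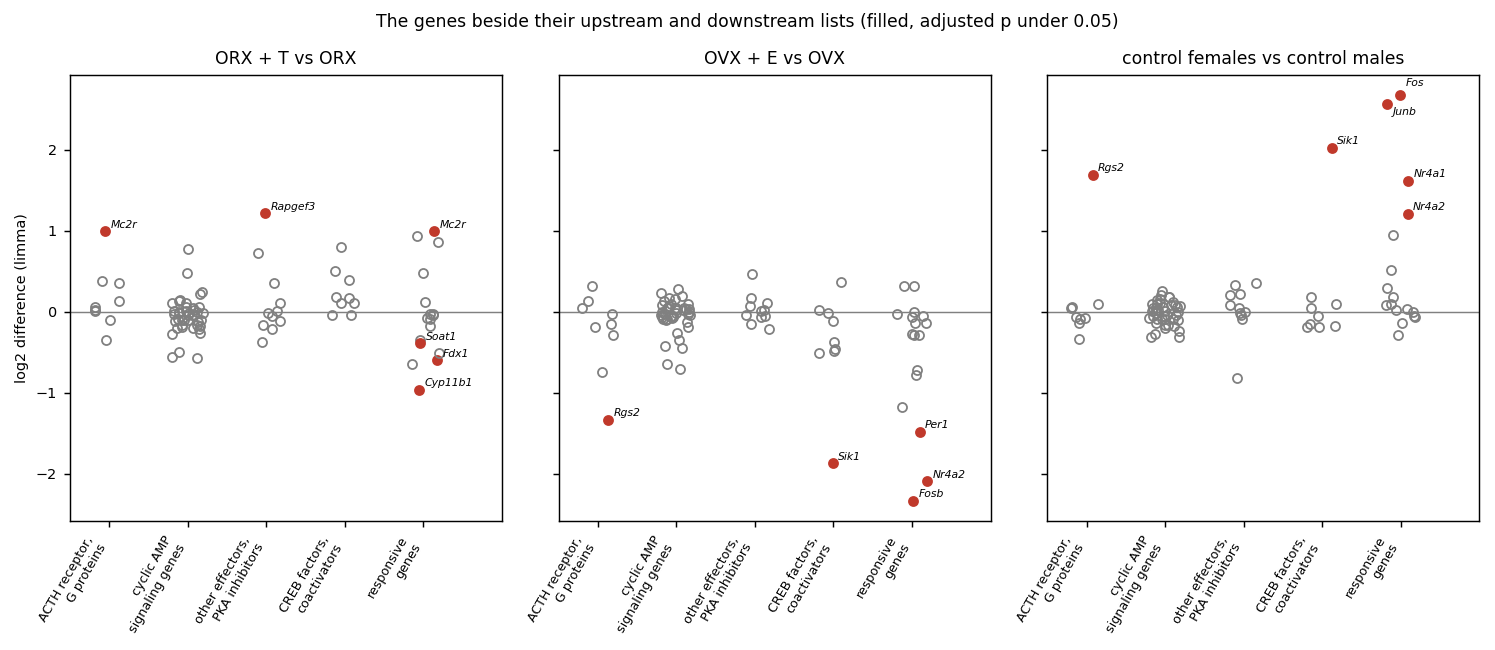
Log2 difference of every measured gene of 5 lists (columns, from the ACTH receptor to cyclic AMP-responsive genes) in ORX + T against ORX, OVX + E against OVX and control females against control males, filled and named where the adjusted p was under 0.05; Mc2r is in 2 lists. The 42 cyclic AMP signaling genes carry no filled point in these 3 comparisons and lie between -0.71 and 0.77, while genes of the lists reach 2.68 (Fos) and -2.34 (Fosb).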

How the data were processed

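The authors hybridized RNA of 30 rats, 1 array each, and processed it by RMA in the affy package; the deposited values are normalized log2 signals. Which arrays were normalized together is not given in the sources used here. No scaling was added. Of 36685 probe sets, the 14824 with exactly 1 gene symbol in the platform annotation were kept, 829 had several and 21032 none; the brightest probe set stood for its gene (14557 genes). All 42 member symbols matched RefSeq by Entrez number.

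Group means were compared with limma 3.58.1 in R 4.3.3 over all 30 arrays (24 residual and 2.92 prior degrees of freedom), with Benjamini-Hochberg adjustment within each of 9 comparisons and a moderated F test among the 6 groups. A gene was called at an adjusted p under 0.05; the methods of the study also ask for a fold above 2, an alternative here. Named members were those called, those known from adrenal disease or ACTH action, and the 3 of highest mean signal per family, with a two-sided exact permutation test beside limma; other members and Pkia were named after their values were seen. The members and lists were chosen with earlier results of these data known. Array number limits precision. Dim signals have no detection call. The fit was tested on simulated data. Alternatives were other variance models, weights, a replicate block, filters, probe set rules, quantile normalization, array SD as a covariate, arrays left out and the fold limit.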

Additional observations from a re-analysis of the deposited data

Results flagged for a closer look

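In 9 of 102 sets of 5 values (17 named members in 6 groups) the highest or lowest rat stood apart from the others of its group; chance alone marks about 1 set in 20. Of these, 7 were low values on narrow arrays. In control males, replicate 3 was low for Prkaca (8.92), Pde8b (6.12), Pde7b (5.39) and Akap10 (6.67). In control females, replicate 5 was low for Prkar2a (5.52), Pde8a (7.51) and Akap1 (5.26). The 2 others were high values of Adcy3 on arrays of the usual spread, 4.77 in replicate 2 of ORX and 4.94 in replicate 4 of the control females.

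Of the genes on the lists read beside the 42, 7 differed in response between estradiol and testosterone. The responses were OVX + E minus OVX and ORX + T minus ORX. Limma's test of their difference called 1.57% of all genes. Sik1 differed by -2.68, Nr4a2 by -2.96, Fosb by -2.25 and Per1 by -2.43, with adjusted p of 0.00207, 5.84e-05, 0.000181 and 0.000948. Cyp11b1 differed by 0.94 (adjusted p = 0.000437). The stromal genes Dcn and Postn differed by -0.64 and -0.92 (adjusted p = 0.000322 and 0.0184), and Postn lost its call without the narrow arrays (adjusted p = 0.0593).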

How the results depend on the processing

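Leaving out the 10 narrow arrays moved the members called to 1 in ORX against control males, 2 in ORX + T against control males, 4 in ORX + T against ORX, 4 in OVX + E against OVX, 1 in the estradiol minus the testosterone response and 10 in the test among the 6 groups. With the array SD as a covariate these counts were 3, 3, 6, 6, 2 and 12, with 2 in OVX and 2 in OVX + E against control females. With array weights they were 1, 4, 4, 4, 1 and 12, with 1 in control females against control males. Quantile normalization gave 2 in ORX + T against control males, 3 in ORX + T against ORX, 2 in OVX + E against control females, 2 in OVX + E against OVX, 1 in the difference of the responses and 5 among the 6 groups. In ORX + T against control males the count was 0 with only the arrays compared, with an intensity trend and robust variances, or with the fold limit. In ORX + T against ORX it was 1 over the 60% brightest genes. The share of all genes called was not counted under any alternative setting, so these member counts have no share to be set against. The cause of these shifts was not tested. With the replicate number as a block, 1 member was called in ORX + T against ORX (Prkaca), 1 in OVX + E against OVX (Prkacb) and 2 among the 6 groups, while ORX + T against control males kept its 1; the numbers were not taken to pair rats, since 48 of 75 pairs of the same number correlated above 0.1 (-0.76 to 0.87) and 10 of 30 arrays correlated best with their own number. Leaving out 1 array gave 0 to 1 in ORX + T against control males, in ORX + T against ORX and in OVX + E against OVX, 0 to 2 among the 6 groups, and 0 in the other comparisons. Of 248 counts recomputed 199 stayed and 49 moved. The 76 differences recomputed were those that passed or, for members, had an unadjusted p under 0.05 by limma in the same data. Of their 1685 values 0 turned direction, but the refits share most arrays, so a turn was unlikely from the start. A pass was lost for 147, some only to the fold limit, and gained for 50. No other scaling moved the median of all genes by over 0.1.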

Other observations

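Of 10 circadian clock genes measured, Dbp rose and Bmal1 and Npas2 fell in ORX against control males (by 1.38, -1.50 and -1.29, with adjusted p of 0.000138, 0.0161 and 0.0144). In ORX + T against control males 3 rose (Dbp, Per2 and Per3) and 3 fell (Bmal1, Npas2 and Nfil3). Dbp also rose by 1.66 in OVX and by 1.98 in OVX + E against control females, and was lower by -1.30 in control females than in control males. The call of Bmal1 after ORX was lost without replicates 2, 4 or 5 of the control males or 3 or 5 of ORX, and that of Npas2 without 4 or 5 of the control males or 5 of ORX (adjusted p up to 0.0707). The call of Per2 was lost in 5 such fits (adjusted p up to 0.12).

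Among cell type markers, Kcnk3 of the zona glomerulosa fell by -1.18 in ORX + T against ORX and Cyp11b2, the aldosterone synthase, by -1.68 in OVX + E against OVX, with adjusted p of 0.00286 and 0.0167; that of Cyp11b2 was 0.404 with only the arrays compared. Dcn (0.38), Postn (0.78) and the glial marker S100b (1.01) rose in ORX + T against ORX, and with only the arrays compared Postn (adjusted p = 0.14) and S100b (0.065) lost their calls. Of 8 macrophage and 7 endothelial markers 0 passed in any comparison, with medians of -0.53 and -0.46 in OVX + E against OVX.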
